A study of Mus musculus with 9 samples.

Results

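The 10 genes described here encode the carnitine shuttle and the core enzymes of mitochondrial fatty acid beta-oxidation: Cpt1a, Slc25a20, Cpt2, Acadvl, Acadl, Acadm, Hadha, Hadhb, Hadh and Etfdh. They were chosen by gene symbol, and although the rule uses no measured value, the set was proposed with earlier results of these data known. All 10 were found among the 32593 genes of the deposited kidney RNA-seq table. Each of the 10 passed the filter on low values, which kept genes with FPKM 1 or more in 3 or more libraries. FPKM is the number of fragments per kilobase of gene model, scaled to the sequencing depth of the library.

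Kidneys were compared between 3 groups of mice, and every group received AngII, the vasoconstrictor peptide angiotensin II. CDH16KO-AngII mice had the genotype CDH16 Cre+/Tmemfl/fl, a floxed Tmem allele together with Cre driven by Cdh16, a cadherin gene of kidney tubule epithelium. GRPR-AngII mice had the genotype CDH16 Cre+/GRPRfl/fl, the same Cre with a floxed GRPR allele. AngII mice had the genotype Tmemfl/fl, the floxed allele without Cre. Each group had 3 libraries. The kidney was sequenced whole, so tubule cells in which Cre acts were mixed with other cells. CDH16KO-AngII and AngII differ both in Cre itself and in what Cre deletes. GRPR-AngII and AngII differ in Cre and in the floxed allele, and the Cre-positive groups differ in the floxed allele. Age and sex are not given in the labels, and the labels do not state that libraries came from separate animals, so a p-value speaks of the spread among libraries, which may be technical.

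Fatty acids with long chains cross the inner mitochondrial membrane only as carnitine esters, made and unmade by the carnitine palmitoyltransferases. In the matrix, each round of beta-oxidation dehydrogenates the acyl-CoA, hydrates it, dehydrogenates it again and cleaves off acetyl-CoA. The electrons pass to the respiratory chain through NADH and through the electron transfer flavoprotein and its dehydrogenase. In kidney, the proximal tubule relies on this pathway for most of its ATP, and PPAR-alpha is the best known activator of its genes.

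Libraries held 40731748 to 60449117 counts, with 11456 to 12276 genes at FPKM 1 or more. The series title names STING, whose gene is Sting1, and the labels write only Tmem. Sting1 stood at 0.65, 0.7 and 0.58 FPKM in CDH16KO-AngII, 0.86, 0.91 and 0.71 FPKM in GRPR-AngII and 1.37, 0.55 and 1.7 FPKM in AngII. AngII library 2 was below every other library for this gene, so Sting1 does not separate CDH16KO-AngII from AngII. All 16 proximal tubule markers were detected in every library, among them Slc34a1 at a mean of 901 FPKM. No batch is named in the labels.

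The windows of 250 bases upstream of the RefSeq gene starts (RefSeq, GRCm38.p6) were read for all 10 members. They are shown for the genes that hold the nuclear receptor half-site AGGTCA (Cpt1a, Acadm and Acadvl), for the other shuttle genes, Cpt2 and Slc25a20, and for Hadhb, whose window is largely that of Hadha. Capitals mark AGGTCA or the GC box GGGCGG on either strand (TGACCT and CCGCCC when read on the other strand). Cpt1a is chr19:3323051-3323300, plus strand. Cpt2 is chr4:107923590-107923839, minus strand. Slc25a20 is chr9:108661886-108662135, plus strand. Acadm is chr3:153944644-153944893, minus strand. Acadvl is chr11:70015429-70015678, minus strand. Hadhb is chr5:30155003-30155252, plus strand.
Cpt1a: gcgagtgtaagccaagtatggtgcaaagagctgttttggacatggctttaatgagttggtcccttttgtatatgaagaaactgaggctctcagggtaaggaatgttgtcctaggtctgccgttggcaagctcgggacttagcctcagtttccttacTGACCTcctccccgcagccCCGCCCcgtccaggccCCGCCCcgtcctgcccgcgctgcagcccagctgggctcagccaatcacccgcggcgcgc
Cpt2: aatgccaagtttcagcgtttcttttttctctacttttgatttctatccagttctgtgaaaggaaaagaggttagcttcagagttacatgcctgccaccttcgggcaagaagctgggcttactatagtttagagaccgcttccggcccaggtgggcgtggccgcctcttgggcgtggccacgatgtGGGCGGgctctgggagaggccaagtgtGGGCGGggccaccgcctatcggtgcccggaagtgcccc
Slc25a20: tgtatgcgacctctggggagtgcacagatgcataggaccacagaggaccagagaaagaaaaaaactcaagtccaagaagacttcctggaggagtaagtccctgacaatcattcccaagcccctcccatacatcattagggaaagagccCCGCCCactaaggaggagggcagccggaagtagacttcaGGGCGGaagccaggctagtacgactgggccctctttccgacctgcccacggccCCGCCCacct
Acadm: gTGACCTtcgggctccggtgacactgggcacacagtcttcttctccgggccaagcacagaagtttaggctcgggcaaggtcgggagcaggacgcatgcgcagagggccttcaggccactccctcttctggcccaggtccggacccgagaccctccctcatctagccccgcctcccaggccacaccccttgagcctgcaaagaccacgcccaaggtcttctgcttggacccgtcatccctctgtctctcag
Acadvl: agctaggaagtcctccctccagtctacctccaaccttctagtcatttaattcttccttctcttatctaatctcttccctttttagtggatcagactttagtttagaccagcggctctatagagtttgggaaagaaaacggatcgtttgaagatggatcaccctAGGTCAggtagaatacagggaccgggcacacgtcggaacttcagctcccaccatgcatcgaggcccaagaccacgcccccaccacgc
Hadhb: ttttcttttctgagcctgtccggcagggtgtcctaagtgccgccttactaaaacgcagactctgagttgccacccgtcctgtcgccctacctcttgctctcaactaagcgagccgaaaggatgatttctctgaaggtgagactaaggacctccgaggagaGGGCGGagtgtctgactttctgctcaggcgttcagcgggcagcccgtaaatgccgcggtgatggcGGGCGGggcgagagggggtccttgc

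AGGTCA occurred in 3 of the 10 windows, against 14.0% of the 32851 RefSeq windows of the same length. It lay at bases −94 to −89 from the start of Cpt1a, −249 to −244 from that of Acadm and −87 to −82 from that of Acadvl. GGGCGG occurred in 7 of 10 windows, against 32.7% of all. Acadm, Acadvl and Etfdh were the members without it. The spaced repeat AGGTCANAGGTCA (N is any base), which contains AGGTCA and is the form that PPAR and RXR dimers bind, was in 0 of 10 member windows and in 0.0335% of all windows. Hadha and Hadhb are read outward from a shared stretch of chromosome 5, with 272 bases between their starts, and their windows share 228 bases. The GC box of the Hadha window lies in the shared bases, so it is counted for both genes in the 7 of 10. A match describes letters in the window and is not evidence of binding, and the absence of a match says nothing of the factor.

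All members were above the filter value of FPKM 1 in every library, the lowest being Etfdh at 3.55 FPKM. Scaled to the longest protein-coding transcript, in CPM per kb (counts scaled to 1000000 per library after TMM normalization, per kilobase), Acadm was highest in AngII kidneys at 211 ± 24.1 and Hadh followed at 173 ± 30.3 (SD, n = 3). Acadl stood at 131 ± 1.04 CPM per kb and Acadvl at 126 ± 16.7 CPM per kb in AngII. Cpt2 stood at 62.1 ± 6.06 CPM per kb, Hadhb at 56.6 ± 9.92 and Cpt1a at 54.0 ± 4.80. Etfdh stood at 36.5 ± 11.3 CPM per kb, Slc25a20 at 32.6 ± 2.72 and Hadha at 29.8 ± 6.31. Within each of these 4 sets, neighbours in the order differed by less than the sum of their SDs, whereas the sets were further apart than that sum. On this scale the acyl-CoA dehydrogenases and Hadh were the most abundant members, and Etfdh, Slc25a20 and Hadha were the least abundant. The counts are those of the whole gene and the length is that of 1 coding transcript. Any counted reads on other exons therefore raise the value.

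The order depended on the length used. With the summed counts of each library as depth, the deposited FPKM implied a length 1.20 times the union of all exons annotated in GENCODE M21. Of 1500 genes compared, 99.5% lay within 5% of their median ratio. A factor this even may lie in the depth, so the length behind FPKM followed the exon union up to that factor. That union includes exons found only in models that do not code for protein, which made up 68.5% of it for Hadhb, 67.8% for Etfdh, 64.1% for Hadh and 63.2% for Slc25a20. The share was 4.44% for Acadl and 0.795% for Cpt2. Hadh therefore ranked 5 by mean FPKM and 2 by CPM per kb, and Acadl ranked 1 by FPKM and 3 by CPM per kb. Cpt2 ranked 4 by mean FPKM, above Hadh, and 5 by CPM per kb. FPKM of 1 gene is compared below between libraries, where the length cancels, and not between genes.

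**Figure D1:**
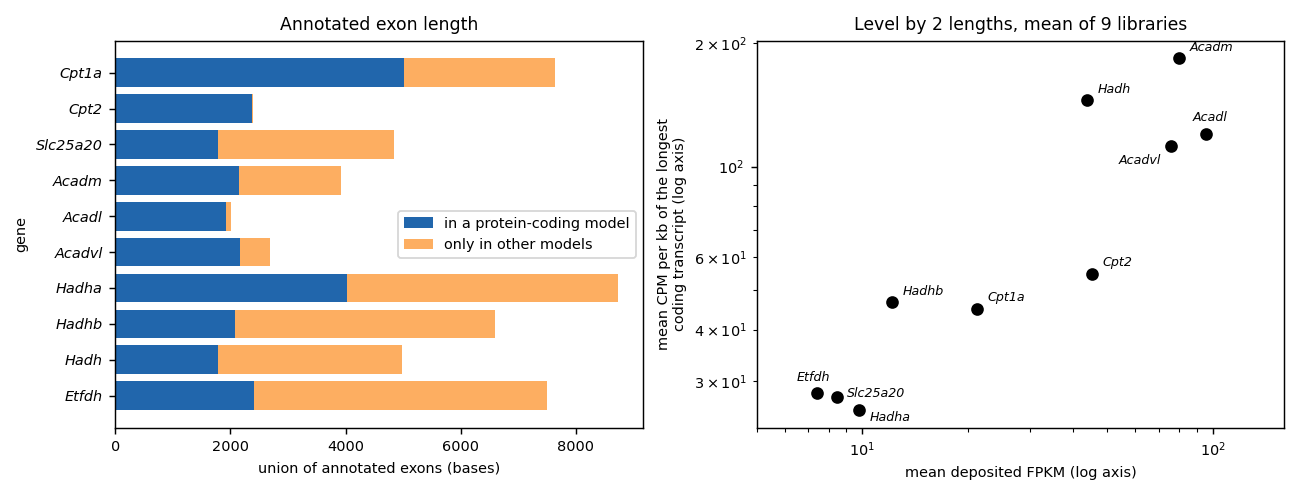
Left, bases of the union of annotated exons of each member, split into exons of protein-coding models and exons found only in other models. Right, mean CPM per kb of the longest coding transcript against mean deposited FPKM over the 9 libraries, both axes logarithmic. Hadh and Hadhb stand higher on the coding scale than their FPKM places them.

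In the carnitine shuttle, CDH16KO-AngII libraries had lower levels of every member than AngII libraries, with no overlap. The same held in FPKM for 6.49% of all tested genes. Cpt1a (ENSMUSG00000024900, chromosome 19, 3322334 to 3385733, plus strand, GRCm38) encodes the outer membrane transferase that loads acyl groups onto carnitine and is inhibited by malonyl-CoA. Cpt1a stood at 15.5, 19.8 and 15.1 FPKM in CDH16KO-AngII libraries 1, 2 and 3, 22.4, 22.4 and 17.7 FPKM in GRPR-AngII and 27.3, 25.9 and 24.6 FPKM in AngII. All GRPR-AngII libraries also lay below all AngII libraries, and CDH16KO-AngII overlapped GRPR-AngII because GRPR-AngII library 3 was lower than CDH16KO-AngII library 2. Mean levels were 16.8 ± 2.58 FPKM in CDH16KO-AngII, 20.8 ± 2.71 FPKM in GRPR-AngII and 25.9 ± 1.33 FPKM in AngII (SD, n = 3 each).

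Slc25a20 (ENSMUSG00000032602, chromosome 9, 108662088 to 108684641, plus strand) encodes the carrier that exchanges acylcarnitine for carnitine across the inner membrane. Slc25a20 stood at 7.25, 5.91 and 4.92 FPKM in CDH16KO-AngII libraries 1, 2 and 3, 8.3, 10.8 and 7.98 FPKM in GRPR-AngII and 8.87, 10.7 and 11.2 FPKM in AngII. Every CDH16KO-AngII library was below every library of the other groups, and GRPR-AngII overlapped AngII. Cpt2 (ENSMUSG00000028607, chromosome 4, 107903981 to 107923610, minus strand) encodes the inner membrane transferase that regenerates acyl-CoA in the matrix. Cpt2 stood at 35.2, 32.5 and 25.7 FPKM in CDH16KO-AngII libraries 1, 2 and 3, 50.7, 53.6 and 51.6 FPKM in GRPR-AngII and 47, 50.5 and 60.4 FPKM in AngII. The highest CDH16KO-AngII library lay below the lowest library of either other group, and GRPR-AngII lay inside the AngII range on all 3 libraries.

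None of the 3 passed the threshold of an adjusted p under 0.05 (edgeR quasi-likelihood test over 12507 genes, Benjamini-Hochberg). For CDH16KO-AngII against AngII, the edgeR log2 fold change of Cpt1a was −0.60 (SE 0.14, adjusted p = 0.187), a level 66.2% of that in AngII. That of Slc25a20 was −0.73 (SE 0.16, adjusted p = 0.148) and that of Cpt2 was −0.72 (SE 0.14, edgeR adjusted p = 0.113). DESeq2 called 0.856% of all genes lower in this comparison. All 3 shuttle genes were among them, with DESeq2 adjusted p of 0.00408 for Cpt1a, 0.00504 for Slc25a20 and 0.000753 for Cpt2. Over the 19 alternatives to the main fit, the adjusted p reached 0.594, 0.458 and 0.383 for these genes, and DESeq2 was the 1 alternative with a call. In whole kidney RNA, fewer cells of a type and less RNA per cell cannot be told apart.

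**Figure D2:**
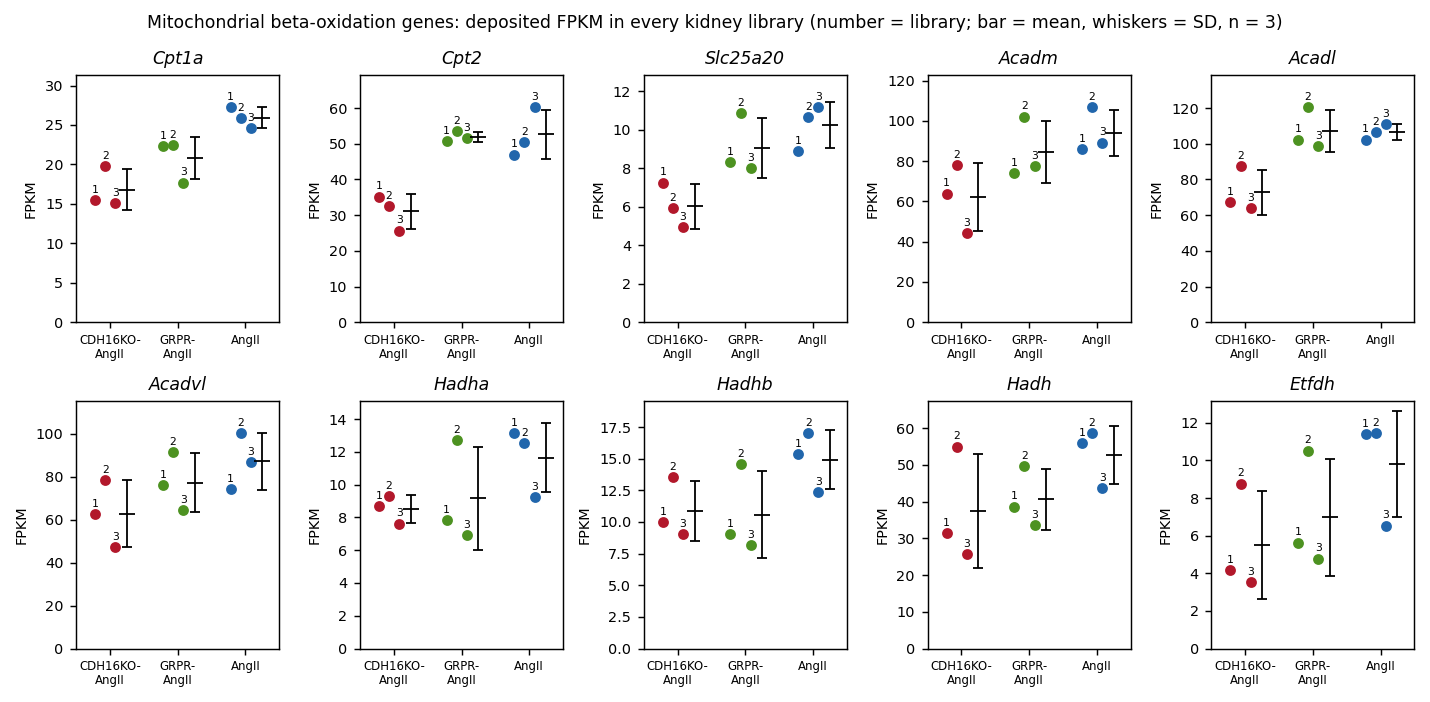
Deposited FPKM of the 10 members in every library, on linear axes that start at 0. Numbered points are libraries 1 to 3 of CDH16KO-AngII, GRPR-AngII and AngII; bars are group means and whiskers SDs (n = 3). For Cpt1a, Cpt2, Slc25a20, Acadm and Acadl every CDH16KO-AngII point lies below every AngII point, and for the other members CDH16KO-AngII library 2 reaches into the AngII range.

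The acyl-CoA dehydrogenases, which carry out the first oxidation of each round, had their lowest means in CDH16KO-AngII, at 62.8 ± 15.7 FPKM for Acadvl, 72.9 ± 12.7 FPKM for Acadl and 62.1 ± 16.9 FPKM for Acadm (SD, n = 3). Acadvl (ENSMUSG00000018574, chromosome 11, 70010183 to 70015411, minus strand) takes very long chains and is bound to the inner membrane. Acadvl stood at 62.6, 78.6 and 47.3 FPKM in CDH16KO-AngII libraries 1, 2 and 3, 76, 91.4 and 64.3 FPKM in GRPR-AngII and 74.2, 100 and 86.9 FPKM in AngII. CDH16KO-AngII library 2 lay inside the AngII range and the other CDH16KO-AngII libraries below it. In the annotation, 42.9% of the exons of Acadvl overlap those of Dvl2 on this locus, so reads of the genes could be split between them. Dvl2, named after its values were seen, was at −0.00 on the log2 scale in CDH16KO-AngII relative to AngII (edgeR adjusted p = 0.997).

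Acadl (ENSMUSG00000026003, chromosome 1, 66830839 to 66863277, minus strand) encodes the dehydrogenase of long chains in rodents. Acadl stood at 67.4, 87.4 and 63.8 FPKM in CDH16KO-AngII libraries 1, 2 and 3, 102, 121 and 98.9 FPKM in GRPR-AngII and 102, 106 and 111 FPKM in AngII. CDH16KO-AngII lay below both other groups in all libraries, and GRPR-AngII extended both above and below the narrow AngII range in FPKM. After TMM normalization no GRPR-AngII library was below the AngII range for Acadl. Acadm (ENSMUSG00000062908, chromosome 3, 153922357 to 153944632, minus strand) takes medium chains. Acadm stood at 63.8, 78 and 44.4 FPKM in CDH16KO-AngII libraries 1, 2 and 3, 73.9, 102 and 77.7 FPKM in GRPR-AngII and 85.9, 107 and 89.2 FPKM in AngII. CDH16KO-AngII lay below AngII in all libraries and overlapped GRPR-AngII, whose libraries 1 and 3 were also below AngII in FPKM. After TMM normalization only library 1 of GRPR-AngII was below AngII for Acadm.

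For CDH16KO-AngII against AngII, the edgeR log2 fold change was −0.52 for Acadl (SE 0.14, adjusted p = 0.262), −0.57 for Acadm (SE 0.20, adjusted p = 0.447) and −0.44 for Acadvl (SE 0.18, adjusted p = 0.562). Acadl was called by DESeq2 (adjusted p = 0.0140, with up to 0.68 under the other alternatives) and the other members of this class were not. Without CDH16KO-AngII library 3, the value of Acadvl was −0.29.

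The trifunctional protein completes the round for long chains. Hadha (ENSMUSG00000025745, chromosome 5, 30118304 to 30155162, minus strand) encodes its alpha subunit, with the hydratase and a dehydrogenase activity. Hadha stood at 8.67, 9.32 and 7.62 FPKM in CDH16KO-AngII libraries 1, 2 and 3, 7.83, 12.7 and 6.9 FPKM in GRPR-AngII and 13.1, 12.6 and 9.23 FPKM in AngII. Hadhb (ENSMUSG00000059447, chromosome 5, 30155248 to 30184593, plus strand) encodes the beta subunit with the thiolase activity. Hadhb stood at 9.98, 13.6 and 9.03 FPKM in CDH16KO-AngII libraries 1, 2 and 3, 9.02, 14.6 and 8.17 FPKM in GRPR-AngII and 15.4, 17 and 12.4 FPKM in AngII. The groups overlapped for both genes, and library 2 was the highest of its group in CDH16KO-AngII and in GRPR-AngII.

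The subunit genes had like patterns over the libraries. On the centred log2 CPM scale (log2 CPM minus the mean of the gene over 9 libraries), Hadha stood at −0.27, 0.35 and −0.31 and Hadhb at −0.36, 0.25 and −0.37 in GRPR-AngII libraries 1, 2 and 3. In AngII they stood at 0.48, 0.35 and −0.13 for Hadha and 0.41, 0.49 and −0.01 for Hadhb, with library 3 the lowest for both. Of the longest coding transcript of Hadhb, 69.7% matched the processed pseudogene Gm13910 at 95% identity or more, so part of its reads may be assigned with uncertainty.

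Hadh (ENSMUSG00000027984, chromosome 3, 131233419 to 131272101, minus strand) encodes the matrix dehydrogenase of shorter hydroxyacyl-CoA. Hadh stood at 31.5, 55 and 25.7 FPKM in CDH16KO-AngII libraries 1, 2 and 3, 38.7, 49.8 and 33.5 FPKM in GRPR-AngII and 55.9, 58.7 and 43.6 FPKM in AngII. CDH16KO-AngII library 2 lay inside the AngII range, above AngII library 3, and CDH16KO-AngII libraries 1 and 3 were below all AngII libraries. Etfdh (ENSMUSG00000027809, chromosome 3, 79603788 to 79629500, minus strand) encodes the oxidoreductase that passes electrons of the acyl-CoA dehydrogenases to ubiquinone. Etfdh stood at 4.18, 8.77 and 3.55 FPKM in CDH16KO-AngII libraries 1, 2 and 3, 5.63, 10.5 and 4.78 FPKM in GRPR-AngII and 11.4, 11.4 and 6.54 FPKM in AngII. Etfdh had the widest spread of the members, 3.23-fold between its highest and lowest library, and its groups overlapped because AngII library 3 was low and CDH16KO-AngII library 2 high.

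For CDH16KO-AngII against AngII, the edgeR log2 fold change was −0.42 for Hadha (SE 0.21, adjusted p = 0.615), −0.43 for Hadhb (SE 0.21, adjusted p = 0.613), −0.47 for Hadh (SE 0.25, adjusted p = 0.623) and −0.82 for Etfdh (SE 0.36, adjusted p = 0.588). None of the 4 was called by DESeq2. Without CDH16KO-AngII library 2, Hadh was at −0.82 and Etfdh at −1.29, and without CDH16KO-AngII library 3, Hadh was at −0.28, with no call in either fit.

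Counted over the whole set, all 10 members had a negative log2 fold change in CDH16KO-AngII against AngII, where 48.1% of the 12507 tested genes were negative. Their median was −0.54, against 0.01 over all tested genes, and their fitted levels were 56.7% to 74.8% of those in AngII. edgeR called 0 of 10, and 0.168% of all genes in either direction (21 genes, 8 of them lower). At an unadjusted p under 0.05, 7 of 10 were lower, against 3.76% of all genes. DESeq2 called 4 of 10 lower, against 0.856% of all genes. In 5 of 10, namely Cpt1a, Cpt2, Slc25a20, Acadm and Acadl, the FPKM of all CDH16KO-AngII libraries was below all AngII libraries, against 6.49% of all genes. These counts describe a set that was proposed with earlier results known, and they are not independent evidence of its direction.

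**Figure D3:**
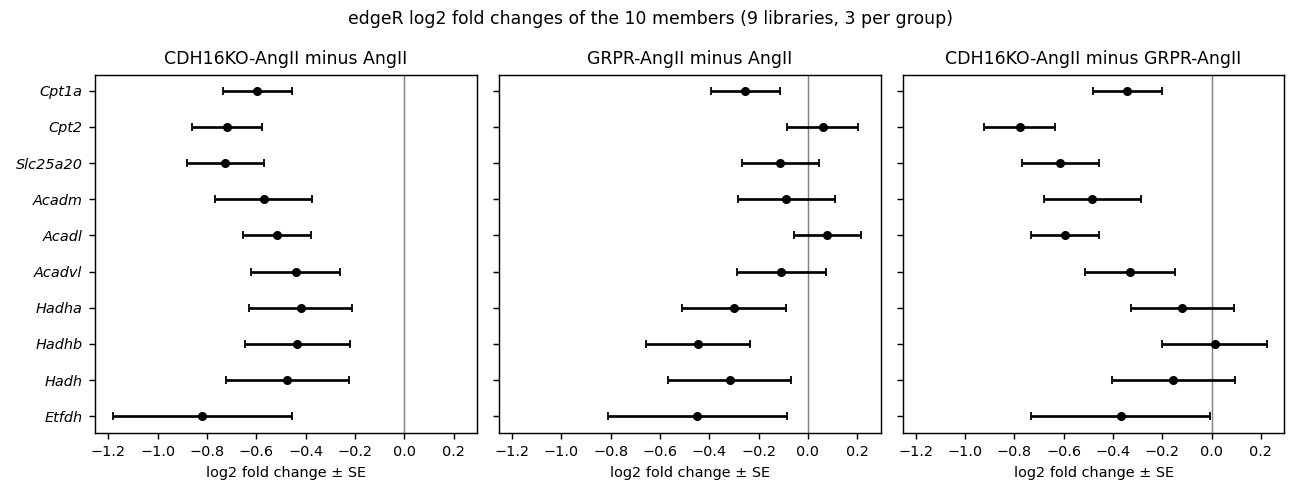
edgeR log2 fold change of each member with its SE in the 3 comparisons, from 1 fit of 9 libraries. All 10 points lie left of 0 for CDH16KO-AngII minus AngII, 8 for GRPR-AngII minus AngII and 9 for CDH16KO-AngII minus GRPR-AngII, and no member passed an adjusted p of 0.05 in any comparison.

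GRPR-AngII was set against AngII, and this comparison shares its AngII libraries with the one above. Of the 10 members, 8 had a negative log2 fold change (51.0% of all tested genes), and the median was −0.18 against −0.01 over all genes. edgeR called 0 of 10 and 0.0% of all genes, with 0 of 10 lower at an unadjusted p under 0.05 (3.24% of all genes) and 0 of 10 called lower by DESeq2 (0.152% of all genes). Cpt1a was at −0.25 (SE 0.14, edgeR adjusted p = 0.736), and it was the 1 member whose GRPR-AngII libraries all lay below AngII in FPKM, as they did for 9.79% of all genes. Cpt2 was at 0.06 and Acadl at 0.08, the 2 positive values. Slc25a20 was at −0.11, Acadm at −0.09 and Acadvl at −0.11.

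In the same comparison Hadha was at −0.30 (SE 0.21), Hadhb at −0.45 (SE 0.21), Hadh at −0.32 (SE 0.25) and Etfdh at −0.45 (SE 0.36), with edgeR adjusted p of the 10 members from 0.732 to 0.935. The sign of Acadm and Acadvl turned when 1 library was left out, and that of Cpt2 under limma.

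CDH16KO-AngII was set against GRPR-AngII, the direct test between the Cre-positive groups. Of the 10 members, 9 had a negative log2 fold change (47.4% of all tested genes), with a median of −0.36 against 0.01 over all genes. Cpt2 was at −0.78 (SE 0.14, edgeR adjusted p = 0.0975), Slc25a20 at −0.61 (SE 0.16, adjusted p = 0.263) and Acadl at −0.59 (SE 0.14, adjusted p = 0.177). For these 3 genes all CDH16KO-AngII libraries lay below all GRPR-AngII libraries in FPKM, as they did for 3.06% of all genes. They were also the 3 members called by DESeq2, which called 0.943% of all genes lower.

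edgeR called 0 of 10 members in this comparison, against 0.144% of all genes, and 5 of 10 were lower at an unadjusted p under 0.05, against 3.03% of all genes. Acadm was at −0.48, Etfdh at −0.37, Cpt1a at −0.34 and Acadvl at −0.33. Hadh was at −0.16, Hadha at −0.12 and Hadhb at 0.01, and the sign of these last 3 turned when 1 library was left out. Hadha, Hadhb and Hadh lay within 1 SE of 0 in this comparison (SE 0.21, 0.21 and 0.25).

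**Figure D4:**
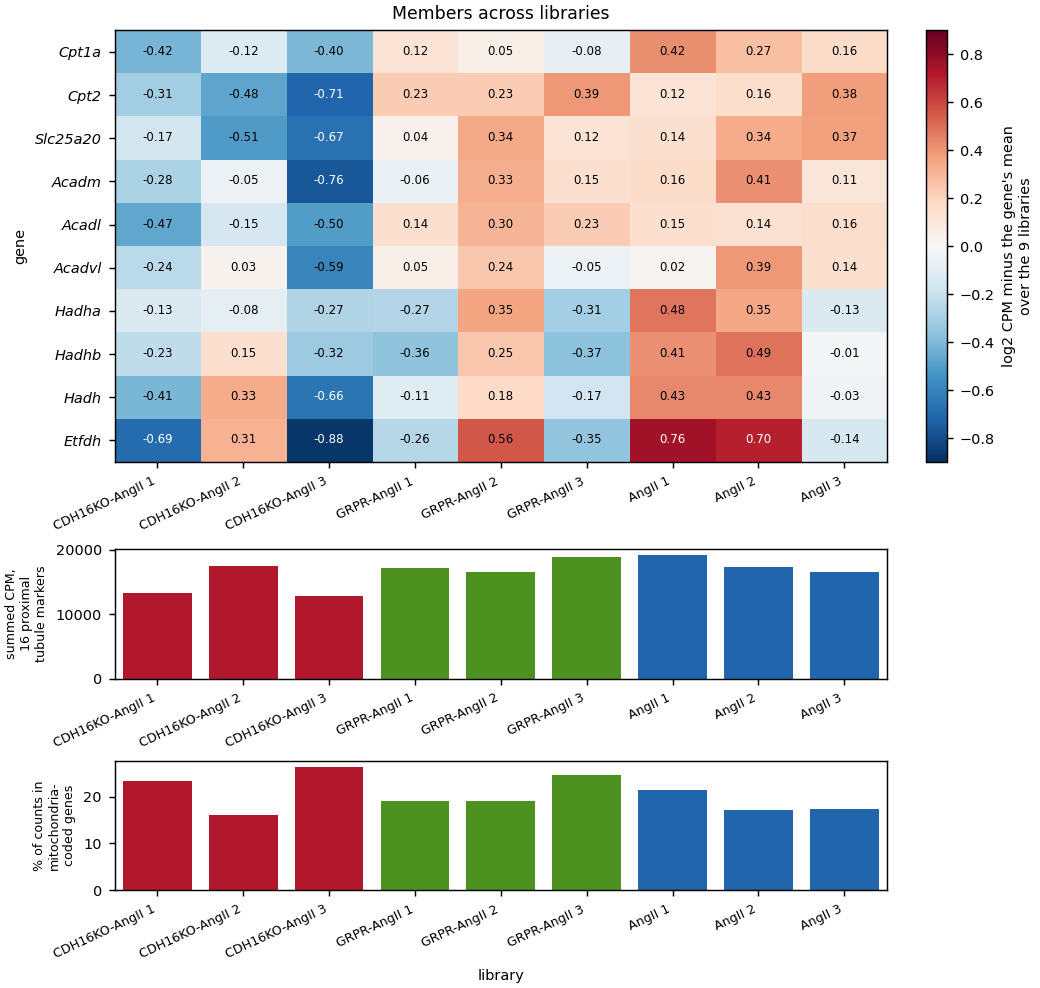
Top, log2 CPM of each member minus its mean over the 9 libraries, blue below and red above the mean. Middle and bottom, summed CPM of 16 proximal tubule markers and the percent of counts in mitochondria-coded genes in the same libraries, on axes from 0. CDH16KO-AngII libraries 1 and 3 are blue for all members, and they have the lowest marker sums.

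Libraries of 1 group differed among themselves. In CDH16KO-AngII libraries 1 and 3, 10 of 10 members had an FPKM below all AngII libraries, against 33.6% and 39.3% of all tested genes. In CDH16KO-AngII library 2 it was 5 of 10 against 21.4%. Because libraries 1 and 3 were below AngII for all 10 members, library 2 alone set which 5 members did not overlap with AngII. In GRPR-AngII libraries 1, 2 and 3 it was 7, 1 and 9 of 10, against 34.8%, 21% and 50.5% of all genes. After TMM normalization the last of these was 7 of 10, and Cpt1a, which overlapped in FPKM, was lower in all CDH16KO-AngII than in all GRPR-AngII libraries.

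Cell type markers also differed between libraries. The 16 proximal tubule markers summed to 13220, 17503 and 12819 CPM in CDH16KO-AngII, 17155, 16519 and 18765 CPM in GRPR-AngII and 19102, 17285 and 16460 CPM in AngII. CDH16KO-AngII libraries 1 and 3 had the lowest sums of all, and library 2 lay inside the AngII range. Of these 16 markers 12 had a negative log2 fold change in CDH16KO-AngII against AngII, with a median of −0.15 and values from −0.86 to 0.38. At an unadjusted p under 0.05, 3 were lower and 2 higher, and edgeR and DESeq2 called 0. Over all 12507 tested genes, 470 were lower and 587 higher at that unadjusted p. The sums did not separate the groups (exact two-sided permutation p = 0.3, where 0.1 is the smallest possible). The part of proximal tubule content in the members' values was not tested.

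The 8 markers of the loop of Henle and distal convoluted tubule summed to 5401, 4204 and 5822 CPM in CDH16KO-AngII, 4575, 4200.3 and 3942 CPM in GRPR-AngII and 5577, 5606 and 3877 CPM in AngII. In CDH16KO-AngII, libraries 1 and 3 had the higher sums and the lower proximal tubule sums, and in AngII, libraries 1 and 2 had the higher sums of both lists. In CDH16KO-AngII against AngII 6 of the 8 were positive, with a median of 0.22, and edgeR called 0, with 0 lower and 2 higher at an unadjusted p under 0.05. DESeq2 called 2 higher, Pvalb and Trpm6, named after their values were seen, with edgeR log2 fold changes of 1.70 (adjusted p = 0.137) and 0.93 (adjusted p = 0.215). Over all 12507 tested genes, 6486 were positive and 587 higher at that unadjusted p, and DESeq2 called 103 higher. Of 9 tested markers of stroma and smooth muscle 8 were positive, with a median of 0.24 and 0 called by edgeR or DESeq2 (1 higher at an unadjusted p under 0.05). They summed to 220, 152 and 263 CPM in CDH16KO-AngII, 169, 225 and 265 CPM in GRPR-AngII and 182, 132 and 218 CPM in AngII. Medians were −0.16 for 10 collecting duct, 0.02 for 6 podocyte, 0.05 for 8 endothelial and −0.21 for 5 tested immune markers. The part of these cell types in the members' values was not tested.

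Mitochondria-coded genes took 23.4%, 16.1% and 26.4% of counts in CDH16KO-AngII, 19.2%, 19.1% and 24.6% in GRPR-AngII and 21.5%, 17.2% and 17.4% in AngII (CDH16KO-AngII against AngII, exact two-sided permutation p = 0.4). CDH16KO-AngII library 2 had the lowest share and the highest members of its group for 8 of 10 genes, and the part of this share was not tested. With mitochondria-coded genes left out of the totals, the median of the members was −0.56. Markers of fat and adrenal gland, tissues beside the kidney, were near 0. White and brown adipocyte markers summed to 0.152 to 0.945 CPM over all libraries, with Adipoq and Plin1 at 0 in 8 of 9 libraries, and the 2 adrenal cortex markers in the table summed to 1.75 to 4.05 CPM.

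The other genes of mitochondrial beta-oxidation mostly had the sign of the members. Of 18 listed genes 17 were tested, and 16 were negative in CDH16KO-AngII against AngII, with a median of −0.48 and 0 called by edgeR. Over all tested genes, 48.1% were negative and edgeR called 0.168% in either direction. At an unadjusted p under 0.05, 9 of the list were lower, against 3.76% of all genes. DESeq2 called 5 lower (Decr1, Eci1, Crat, Slc22a5 and Acaa2), against 0.856% of all genes. Decr1, the dienoyl-CoA reductase of unsaturated chains, stood at 17.3, 28.1 and 15.1 FPKM in CDH16KO-AngII, 29.6, 39.2 and 28.7 FPKM in GRPR-AngII and 34.4, 40.5 and 44.0 FPKM in AngII. Decr1 was lower in every CDH16KO-AngII library than in any other (log2 fold change against AngII −0.94, SE 0.20, edgeR adjusted p = 0.148), which edgeR called without CDH16KO-AngII library 2 (adjusted p = 0.0359, and 0.00162 to 0.442 over all alternatives).

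Acaa2, the thiolase of medium chains, stood at 64.5, 80.6 and 42.2 FPKM in CDH16KO-AngII, 90.6, 137 and 73.97 FPKM in GRPR-AngII and 105, 122 and 113 FPKM in AngII. The log2 fold change of Acaa2 in CDH16KO-AngII against AngII was −0.84, that of the carnitine importer Slc22a5 −0.58, that of the enoyl-CoA isomerases Eci1 and Eci2 −0.52 and −0.48, and that of carnitine acetyltransferase Crat −0.49 (edgeR adjusted p of these 5 genes 0.211 to 0.289). In GRPR-AngII against AngII the list had a median of −0.14, with 13 of 17 negative. In CDH16KO-AngII against GRPR-AngII its median was −0.32, with 14 of 17 negative, and edgeR called 0 of 17 in each (1 and 6 lower at an unadjusted p under 0.05, 0 and 3 lower by DESeq2). Over all genes, 3.24% and 3.03% were lower at an unadjusted p under 0.05, and DESeq2 called 0.152% and 0.943% lower.

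**Figure D5:**
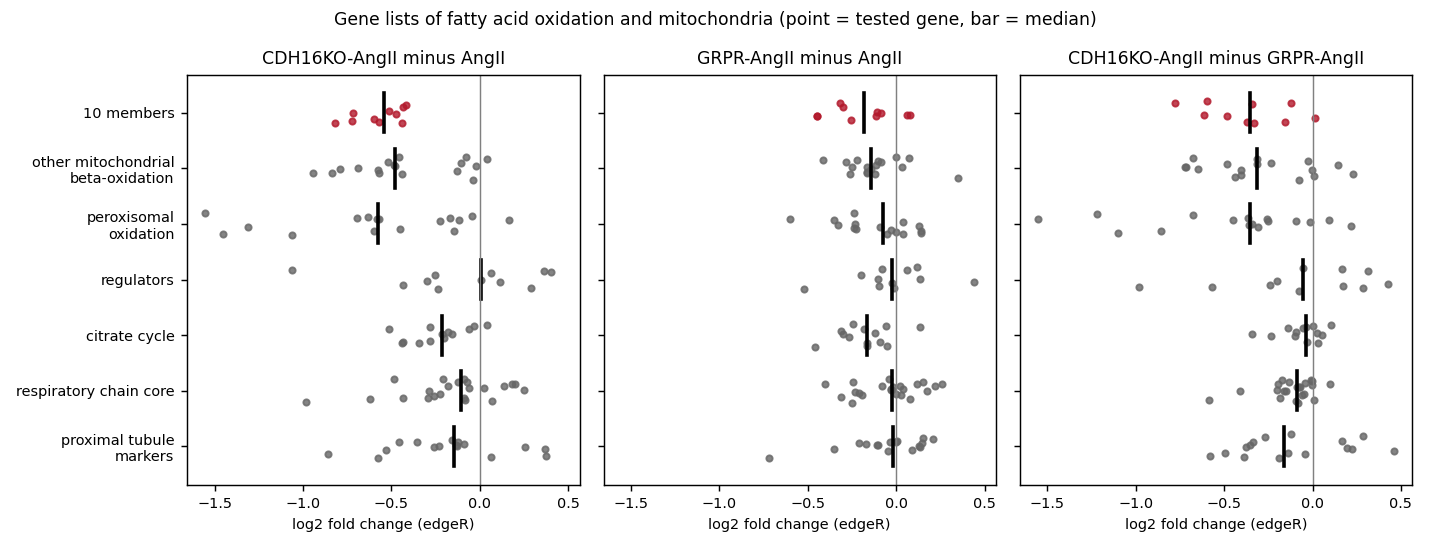
edgeR log2 fold change of every tested gene of 7 lists in the 3 comparisons (points), with the median of each list (bars). In CDH16KO-AngII minus AngII, medians are −0.54 for the members, −0.48 for other mitochondrial beta-oxidation, −0.58 for peroxisomal oxidation and 0.01 for the regulators.

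The regulators had a median near 0. Their list mixes receptors, coactivators and enzymes, so the median gives no single direction of regulation. Of 13 listed genes 11 were tested, 5 were negative in CDH16KO-AngII against AngII, and the median was 0.01. edgeR called 0, with 2 lower and 1 higher at an unadjusted p under 0.05. Over all 12507 tested genes, 470 were lower and 587 higher by that measure. Pdk4, the kinase that restrains pyruvate oxidation, stood at 3.67, 2.41 and 2.66 FPKM in CDH16KO-AngII, 7.89, 5.98 and 3.23 FPKM in GRPR-AngII and 5.26, 5.74 and 7.83 FPKM in AngII. Its log2 fold change against AngII was −1.06 (SE 0.28, edgeR adjusted p = 0.267). Pdk4 was the 1 of 11 regulators called by DESeq2 in this comparison, where 0.856% of all genes were called lower. Mlycd, which removes malonyl-CoA, was at −0.43 (edgeR adjusted p = 0.418). The receptor genes Esrra, Ppard and Rxra were at 0.36, 0.40 and −0.30, and the coactivator gene Ppargc1b was at 0.29. Esrra was the 1 regulator higher at an unadjusted p under 0.05 (edgeR adjusted p = 0.526). In GRPR-AngII against AngII, Esrra was at 0.44 (edgeR adjusted p = 0.685). All libraries of each Cre-positive group lay above AngII in FPKM for Esrra. That held for 586 tested genes in CDH16KO-AngII and 426 in GRPR-AngII.

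Ppara and Ppargc1a were looked up after values were seen. Ppara stood at 0.84, 1.95 and 1.1 FPKM in CDH16KO-AngII, 1.01, 1.11 and 0.98 FPKM in GRPR-AngII and 1.58, 1.99 and 1.07 FPKM in AngII, and its log2 fold change for CDH16KO-AngII over AngII was −0.24 (SE 0.32, edgeR adjusted p = 0.828). Ppargc1a was at 0.11 (SE 0.21, edgeR adjusted p = 0.873). The groups overlapped for both genes.

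Peroxisomal oxidation, which shortens very long and branched chains, contained the calls among these lists. Of 17 listed genes 16 were tested, 15 were negative in CDH16KO-AngII against AngII, the median was −0.58, and edgeR called 2 lower, Acox2 and Hacl1, against 0.168% of all genes in either direction. At an unadjusted p under 0.05, 10 of 16 were lower, against 3.76% of all genes, and DESeq2 called 6 lower (Acaa1b, Acox2, Crot, Decr2, Ehhadh and Hacl1), against 0.856% of all genes. Acox2, the oxidase of branched chains, fell in CDH16KO-AngII, where it stood at 6.96 ± 1.61 FPKM against 17.7 ± 3.01 FPKM in AngII (SD, n = 3 each), a log2 fold change of −1.31 (SE 0.20, edgeR adjusted p = 0.0332). Hacl1, the lyase of alpha-oxidation, also fell, with 2.21 ± 0.299 FPKM in CDH16KO-AngII against 6.18 ± 1.26 FPKM in AngII (SD, n = 3 each), a log2 fold change of −1.45 (SE 0.21, edgeR adjusted p = 0.0297). Exons of other genes overlap 33.3% of those of Hacl1. The list median was −0.07 in GRPR-AngII against AngII (11 of 16 negative) and −0.35 in CDH16KO-AngII against GRPR-AngII (14 of 16 negative), where Acox2 was at −1.22 (edgeR adjusted p = 0.0510). In CDH16KO-AngII against GRPR-AngII edgeR called 0 of 16, 6 were lower at an unadjusted p under 0.05, and DESeq2 called 5 lower (Acaa1b, Acox2, Crot, Ehhadh and Hacl1). Over all genes the shares were 0.144%, 3.03% and 0.943% in that order.

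Each of the 2 calls held in 11 of 19 other settings. Acox2 lost its call without CDH16KO-AngII library 2 or 3, without any 1 of the GRPR-AngII libraries, without AngII library 1 or 2, and in the fit of 2 groups. Hacl1 lost it under limma and without any 1 of the CDH16KO-AngII libraries, GRPR-AngII library 1 or AngII library 1 or 2. Ehhadh of the peroxisomal pathway, named after its values were seen, stood at 37.5 ± 19.5 FPKM in CDH16KO-AngII, 108 ± 43.5 FPKM in GRPR-AngII and 112 ± 4.81 FPKM in AngII (SD, n = 3 each). Its log2 fold change in CDH16KO-AngII against AngII was −1.56 (SE 0.33, edgeR adjusted p = 0.145). It was called in 2 of 19 other settings, DESeq2 (adjusted p = 0.000158) and edgeR without CDH16KO-AngII library 2 (adjusted p = 0.0479), and its adjusted p reached 0.463 over the alternatives.

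Lists of mitochondrial pathways downstream had medians nearer 0 in CDH16KO-AngII against AngII, and the difference between lists was not tested. Of 13 citrate cycle genes 12 were negative in CDH16KO-AngII against AngII, with a median of −0.21 and 0 called by edgeR. Suclg1, a subunit of succinyl-CoA ligase, was at −0.43 (edgeR adjusted p = 0.643). Of 22 nuclear-coded respiratory chain genes 16 were negative, with a median of −0.11 and 0 called by edgeR. Sdha was at −0.99 (edgeR adjusted p = 0.403) and Cox5a at −0.62 (edgeR adjusted p = 0.573). DESeq2 called 0 genes of either list, and 1 citrate cycle and 2 respiratory chain genes were lower at an unadjusted p under 0.05. The share of all genes was 0.856% for lower DESeq2 calls, 3.76% for lower genes at that unadjusted p and 48.1% for negative values. In GRPR-AngII against AngII, 12 of 13 citrate cycle genes (median −0.17) and 12 of 22 respiratory chain genes (median −0.02) were negative, against 51.0% of all genes. In CDH16KO-AngII against GRPR-AngII, 8 of 13 (median −0.04) and 20 of 22 (median −0.09) were negative, against 47.4% of all genes.

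Citrate cycle genes summed to 2899, 3968 and 2989 CPM in CDH16KO-AngII, 3378, 3477 and 3346 CPM in GRPR-AngII and 4245, 4361 and 3218 CPM in AngII. CDH16KO-AngII library 2 and AngII libraries 1 and 2 were the highest. Hadh was the only member highest in the same 3 libraries, and it was singled out after values were seen. For Etfdh and Hadhb, GRPR-AngII library 2 stood above CDH16KO-AngII library 2.

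Over the 9 libraries, the genes whose pattern was most like that of the members included Lonp2, Pwp1, Thoc3, Setdb2, Sqstm1, Anxa7 and Man2a1. Likeness was the root mean square difference between the centred log2 CPM of a gene and the mean of the 10 members, computed for all 12507 tested genes, and those named are outside the lists above and have no predicted-gene name. In log2 units it was 0.0625 for Lonp2, a peroxisomal protease, and 0.0786 for Pwp1, and it reached 0.104 for Man2a1. The members themselves lay between 0.105 for Acadm, at rank 9 of all tested genes, and 0.323 for Etfdh, at rank 4470. Acadvl and Cpt1a ranked 12 and 36, whereas Cpt2 ranked 2301. Each member is part of the mean it was compared with, which brings it nearer to that mean.

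Lonp2 stood at 7.17, 9.88 and 6.13 FPKM in CDH16KO-AngII, 8.68, 10.7 and 7.83 FPKM in GRPR-AngII and 11.6, 12.6 and 10.6 FPKM in AngII. As for 5 of the members, the CDH16KO-AngII and AngII libraries did not overlap. Its log2 fold change in CDH16KO-AngII against AngII was −0.56 (SE 0.17, edgeR adjusted p = 0.331). Lonp2 was picked for its likeness to the members over these same libraries, so its values are not independent evidence of their pattern.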

How the data were processed

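Kidney RNA-seq of 9 libraries was analysed. Total RNA was isolated on RNeasy columns and made into libraries with a SMARTER kit, per the labels' protocols. GRCm38 and mm10 are named as builds in the submitters' processing notes, and how reads were aligned and counted, with or without strand, is not given in the sources used. The deposited table holds FPKM and counts of each gene in all libraries, per the file headers. The deposited counts were whole numbers and may be estimated counts that the authors had rounded. The FPKM values are scaled by the authors to gene length and library size.

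Groups follow the genotype labels. The main test was two-sided and used quasi-likelihood in edgeR 4.0.16 (R 4.3.3), with TMM scaling, totals of all genes as library sizes, 1 coefficient per group and all 9 libraries in 1 fit. The filter of FPKM 1 or more in 3 or more libraries left 12507 genes, with Benjamini-Hochberg adjustment over all of them and a threshold of 0.05. TMM factors were 0.896 to 1.08. Standard errors were derived from F statistics. Library values were compared with exact permutation tests. Alternatives were RLE and upper-quartile scaling, no mitochondria-coded genes, other filters, DESeq2 1.42.0, limma 3.58.1 on log2 FPKM with pseudocounts of 1 and 0.1, a replicate block, 2 groups only and leaving out each library. The scripts were tested on simulated data.

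Exon unions come from GENCODE M21 and shared sequence from BLAST+ 2.17.0. The 10 members matched RefSeq promoters by symbol. The members and lists were chosen with earlier results of these data known. Named genes were all members, up to 6 of smallest p of the other beta-oxidation and regulator lists, 2 of the peroxisomal, citrate cycle and respiratory chain lists, and the 8 of most similar pattern. Some genes that this rule selects are not reported here. The pattern measure used log2(CPM + 0.5).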

Additional observations from a re-analysis of the deposited data

How the results depend on the processing

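With edgeR and limma, 0 of 10 members were called in every comparison under every setting run. DESeq2 called 4 members in CDH16KO-AngII against AngII and 3 in CDH16KO-AngII against GRPR-AngII, and the cause was not tested. All 10 members kept a negative log2 fold change in CDH16KO-AngII against AngII in all 19 alternatives. The members' median was −0.69 to −0.42 there when 1 library was left out, −0.23 to −0.13 in GRPR-AngII against AngII and −0.54 to −0.24 in CDH16KO-AngII against GRPR-AngII. A block for the replicate number gave medians of −0.55, −0.18 and −0.37 in that order, with 0 members called in each. The deviations of same-numbered libraries correlated at −0.122 to 0.298, and those of different-numbered libraries at −0.326 to 0.235. Pairs of number 2 and of number 3 were all positive, at 0.134 to 0.298. Pairs of number 1 lay at −0.122 to 0.0907, and not every library correlated best with those of its own number. The main fit did not take the numbers to pair the samples, and whether they do was not tested. Over all genes the block gave 26, 0 and 13 calls in place of 21, 0 and 18. In GRPR-AngII against AngII, Cpt2 turned to −0.0104 and −0.0105 under limma with pseudocounts of 1 and 0.1. Leaving out 1 library gave −0.1871 to 0.0095 for Acadm and −0.1932 to 0.0002 for Acadvl. In CDH16KO-AngII against GRPR-AngII, Hadhb turned to −0.0011 without mitochondria-coded genes and to −0.0108 without a filter, and leaving out 1 library gave −0.15 to 0.25 for Hadhb, −0.25 to 0.13 for Hadha and −0.50 to 0.034 for Hadh. In these 2 comparisons the values moved by over 1.5 times in at least 1 alternative for 8 and 6 members. Over all genes, edgeR called 21 in CDH16KO-AngII against AngII and 0 to 32 when 1 library was left out, and DESeq2 called 210. In CDH16KO-AngII against GRPR-AngII edgeR called 18, 41 without a filter, 9 in the fit of 2 groups and 0 to 38 when 1 library was left out, and DESeq2 called 175. In GRPR-AngII against AngII edgeR called 0, and 0 to 2 when 1 library was left out, and DESeq2 called 45. Members had at least 1398 counts in each library. Their SEs of 0.14 to 0.36 come from the main fit, without the block, and reflect the spread between libraries.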
